A study of Mus musculus with 3 samples.

Results

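Respiratory complex I, the NADH dehydrogenase of mitochondria, was followed through 40 nuclear genes for its subunits and assembly factors. The genes were taken by name from the count tables: 42 of the 23337 gene symbols carried the Nduf prefix with a subunit or assembly factor letter. The rule set aside Ndufa4l2 and required at least 10 reads in at least 1 library. Only Ndufs5, a small subunit of the membrane arm, failed this minimum, with 0 reads in every library, and its near-identical copy BC002163 had 7 and 8 reads in the Sox7-null libraries, against 11 in the wild type. The lowest member, Ndufaf3, reached 284 reads in its highest library, so no other gene lay near the limit. All 40 also passed the filter on low counts used for testing.

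RNA was sequenced from mouse heart tubes at embryonic day 9.5. There were 2 libraries of Sox7-null tubes (labelled SOX7 -/-) and 1 of a wild-type tube. Sox7 encodes an endothelial transcription factor of the SoxF family, and the series asks which transcripts differ when it is absent. No source used here gives the strain, the design of the null allele or whether embryos were pooled. With 1 wild-type library, the p-values rest on the spread between the 2 null libraries, mostly as pooled over all genes tested. That spread may be technical.

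Complex I is the entry point of electrons into the respiratory chain. It takes electrons from NADH at the tip of a peripheral arm, in the N module, passes them along iron-sulfur clusters to ubiquinone in the Q module, and pumps protons through a membrane arm. The catalytic core is shared with bacteria, and its membrane-embedded part is encoded in mitochondrial DNA. Accessory subunits surround the core, and assembly factors help to build the enzyme without staying in it. In the embryonic heart, mitochondria and respiration mature as the organ develops.

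The libraries had similar depth, with 13139823 and 13618338 reads assigned to genes in Sox7-null 1 and 2, and 13789388 in the wild type. Sox7 itself had 2 and 7 reads in the null libraries, against 222 in the wild type. Of 8 heart muscle markers 5 rose and 0 fell as counted (11.3% and 10.2% of all genes tested), and their summed level was 133% and 128% of that of the wild type. With a trend on transcript length and GC removed, 4 rose and 0 fell. Of 4 endothelial markers 1 rose and 1 fell, as counted and with that trend removed. The protocol text also names retinal cultures, but the retina markers Crx, Rcvrn and Six6 had 0 reads in every library and Rax had at most 2. Reads that did not align uniquely made up 10.4% and 11.6% of the files in the null libraries, against 22.3% in the wild type. The summed embryonic blood markers stood at 32.5% and 103% of the wild-type level. All 5 liver and foregut markers were lower, and together had 23 and 14 reads in the null libraries, against 577 in the wild type. The part of these differences in the results below was not tested, and in whole tissue fewer cells of a type and less RNA per cell cannot be told apart.

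Nuclear complex I genes are known for promoters with sites for NRF1, ETS factors such as GABP, and YY1. RefSeq promoters (GRCm38.p6, from 250 bases before to 50 bases after each start) were found by symbol for 36 of the 40 genes. Of these genes 2 had 2 promoters, and a match in either was counted. The palindromic NRF1 site, the 10 capital letters in the windows shown next, was searched on both strands. It was in the promoters of 2 of the 36 genes and in 0.971% of the 32851 promoters in the table. It lay upstream of Ndufa11, a subunit of the membrane arm, and of Ndufaf4, an assembly factor. Both windows of 30 bases are shown on the strand of the gene.
Ndufa11 (chr17:56717692-56717721, plus strand): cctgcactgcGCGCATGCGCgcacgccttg
Ndufaf4 (chr4:24897960-24897989, plus strand): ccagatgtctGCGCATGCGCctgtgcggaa

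The YY1 core AAGATGGC, also searched on both strands, was in a promoter of 7 of the 36 genes (19.4%) and in 2.75% of all promoters in the table. In all 7 it lay on the gene's own strand just after the start, its first base at positions 23 to 39. The letters themselves contain the triplet ATG. The 7 windows are shown to let the shared letters be compared, with the core in capitals.
Ndufa3 (chr7:3617384-3617413, plus strand): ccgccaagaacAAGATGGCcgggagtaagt
Ndufa9 (chr6:126849097-126849126, minus strand): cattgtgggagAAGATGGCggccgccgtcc
Ndufb8 (chr19:44555393-44555422, minus strand): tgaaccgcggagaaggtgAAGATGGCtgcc
Ndufc1 (chr3:51408915-51408944, minus strand): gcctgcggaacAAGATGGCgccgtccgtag
Ndufs4 (chr13:114388045-114388074, minus strand): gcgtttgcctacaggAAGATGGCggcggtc
Ndufs6 (chr13:73328433-73328462, minus strand): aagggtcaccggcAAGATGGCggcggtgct
Ndufs7 (chr10:80249462-80249491, plus strand): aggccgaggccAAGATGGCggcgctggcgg

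The shorter ETS core CCGGAAG was in a promoter of 5 of the 36 genes (13.9%), Ndufaf1, Ndufb6, Ndufb7, Ndufs3 and Ndufs8, and in 8.86% of all promoters in the table. It was also searched on both strands. The ETS and YY1 cores share the letters AAG and could overlap, but no promoter of these genes held both. A match is a description of these windows and not a measured site.

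As counted, 20 of the 40 complex I genes were lower in the Sox7-null heart tubes and 0 were higher (edgeR adjusted p under 0.05), but with the trend on transcript length and GC removed 4 were lower and 2 higher. Lengths there are those of the median-length transcript of each gene, and with the longest transcript, a setting chosen after seeing the data, 8 were lower and 3 higher. Without a filter on low counts edgeR called 0 of the 40 as counted (smallest adjusted p = 0.122, 26 lower at an unadjusted p under 0.05). There 4113 of all 17242 genes had such an unadjusted p, in either direction. Among all 13334 genes tested, 10.2% were lower and 11.3% higher as counted (21.6% in either direction), and 5.74% and 8.83% with the trend removed (14.6%). At an unadjusted p under 0.05, edgeR counted 2 members as higher and 27 as lower, beside 4712 of the 13334 genes tested in either direction. Neither DESeq2 nor limma-voom called a member higher. The median log2 fold change of the 40 genes was -0.55 as counted, against 0.014 for all genes tested, and 0.041 with the trend removed, against 0.030. Complex I genes together held 0.625% and 0.617% of the assigned reads in the null libraries, against 0.839% in the wild type.

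The median size of the log2 difference between the null libraries was 0.090 for these genes, against 0.20 for all genes tested. For 36 of the 40 genes it was smaller than their distance from the wild type, as it was for 73.0% of all genes tested and 77.5% of those in the shortest of 5 length classes. In 33 of the 40 genes the wild type was above both null libraries, against 43.0% of all genes and 66.9% of the shortest class. In 5 it was below both (43.1% of all genes, 22.0% of the shortest class) and in 2 between them. These shares are descriptions with no test. Set against the wild type, the median log2 ratio came to -0.57 for the first null library and -0.54 for the second. Both ratios use the same wild-type library, whose own spread could not be measured.

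**Figure D1:**
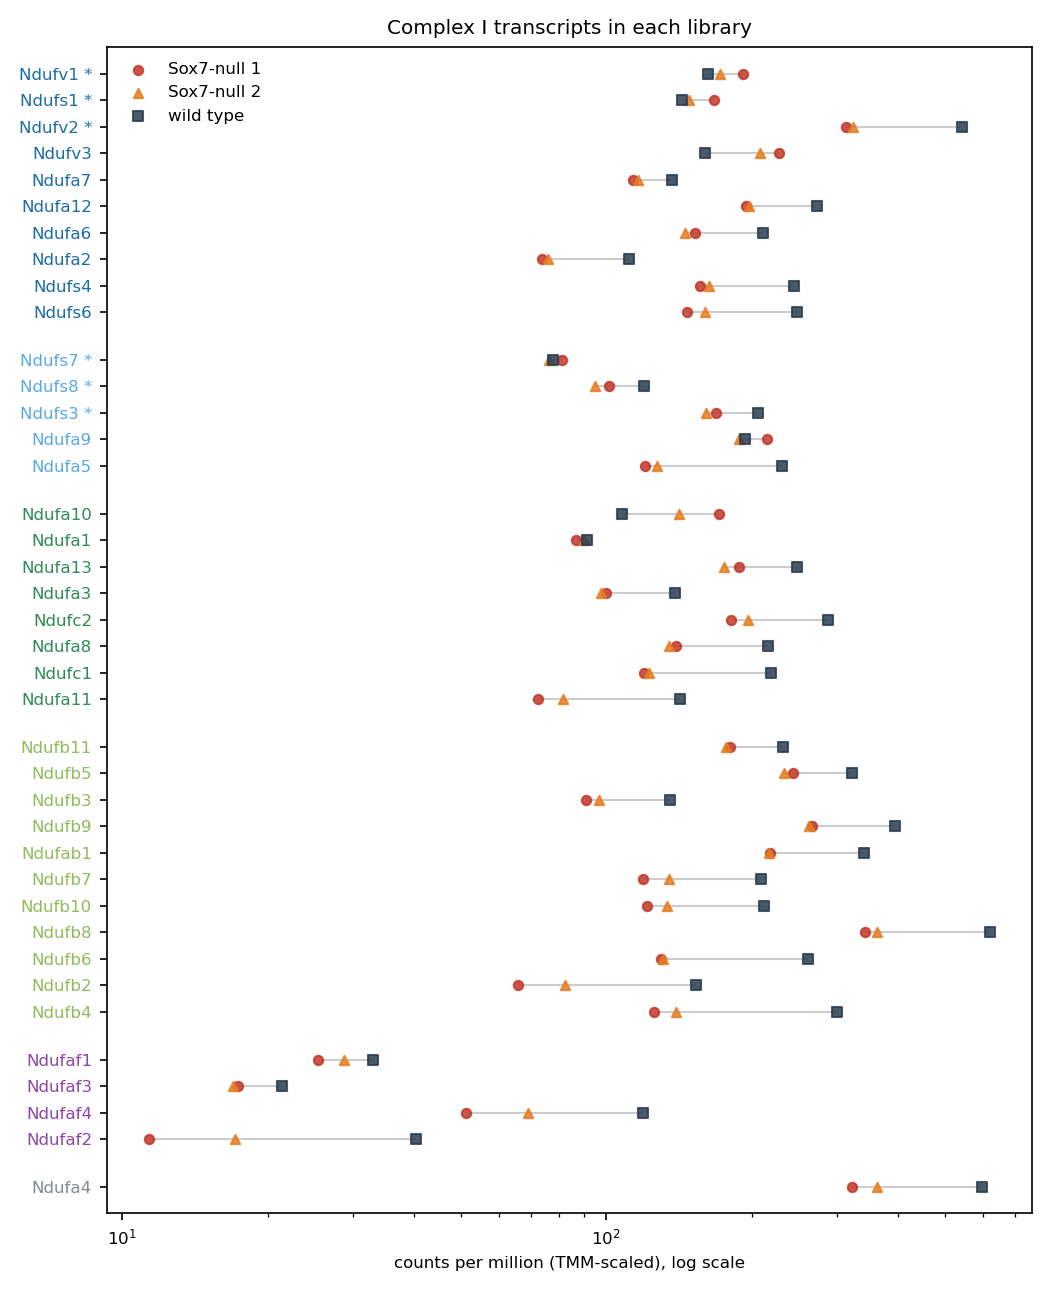
CPM (TMM-scaled, log axis) of 39 complex I genes in both Sox7-null libraries and in the wild type, grouped from top to bottom as N module, Q module, proximal membrane arm, distal membrane arm, assembly factors and Ndufa4, with core subunits starred. Each point is 1 library. The wild type lies above both null libraries in 33 genes as counted.

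Of the 7 nuclear-encoded subunits of the catalytic core 1 was lower as counted and 0 were higher, with a median log2 fold change of 0.016 (0.18 with the trend removed, where 0 were called). At the NADH end, Ndufv1, which binds NADH and its flavin, had 192 and 172 CPM (reads relative to the TMM-scaled library total) in the null libraries, against 162 CPM in the wild type (log2 fold change 0.16 ± 0.18 SE, edgeR adjusted p = 0.556). The largest subunit, Ndufs1, which holds several iron-sulfur clusters, had 167 and 148 CPM against 144 CPM (edgeR adjusted p = 0.647). The wild type was thus the lowest of the 3 libraries for both genes, by less than the test could separate.

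Ndufv2, which carries an iron-sulfur cluster beside Ndufv1, was the core subunit that fell as counted. It had 313 and 324 CPM in the null libraries, against 543 CPM in the wild type (log2 fold change -0.77 ± 0.15, edgeR adjusted p = 0.00470). After removal of the trend it stood at -0.18 ± 0.17 (edgeR adjusted p = 0.490). Its transcript, at 927 bases, is shorter than those of Ndufv1 (1661 bases) and Ndufs1 (2661 bases). It is longer than those of the core genes Ndufs7 (758 bases) and Ndufs8 (780 bases), which were not called.

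Ndufs3, Ndufs7 and Ndufs8, core subunits of the Q module, where ubiquinone is reduced, did not pass in either fit. Ndufs7, which holds the last iron-sulfur cluster before the quinone, had 81.0 and 76.2 CPM in the null libraries, against 77.7 CPM in the wild type, with the wild type between the null libraries. Ndufs3 had 169 and 161 CPM against 206 CPM, and Ndufs8, a further cluster-bearing subunit, had 1365 and 1310 reads against 1589 reads. Ndufs3 shares at least 95% identity over at least 50% of its transcript with an annotated copy, Gm12251, so its count is uncertain.

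Accessory subunits were mostly lower as counted. Of 28, 16 were lower and 0 higher, with a median log2 fold change of -0.60, but with the trend removed 2 were lower and 2 higher, with a median of 0.028. Their transcripts had a median length of 669.5 bases, against 1046 bases for the core and 2802 bases for all genes tested. Whether the core and accessory genes differ was not tested.

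In the N module, 3 of 7 accessory genes were lower and 0 higher as counted, and 1 was higher and 0 lower with the trend removed. Ndufs6, a zinc-binding subunit, had 147 and 160 CPM in the null libraries, against 248 CPM in the wild type (log2 fold change -0.69 ± 0.17, edgeR adjusted p = 0.0135). It has a near-identical copy, Ndufs6b, and its count is uncertain. Ndufs4, whose loss causes Leigh-like encephalopathy in mice, had 156 and 163 CPM against 245 CPM (-0.62 ± 0.17, edgeR adjusted p = 0.0222). Ndufa2, a subunit with a thioredoxin-like fold, had 73.8 and 75.9 CPM against 112 CPM (-0.58 ± 0.18, edgeR adjusted p = 0.0422), and did not pass with DESeq2 (adjusted p = 0.0974). With the trend removed none of the 3 passed, at -0.15, -0.21 and 0.068.

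Ndufa6, Ndufa7 and Ndufa12, the remaining short genes of this module with negative values, had log2 fold changes of -0.50, -0.25 and -0.48 as counted and 0.082, 0.32 and 0.20 with the trend removed, and passed in neither fit. Ndufa12 has a near-identical copy, Gm15920.

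Ndufv3 went the other way. This accessory gene, spliced to a short and a long form in mammals, had 228 and 208 CPM in the null libraries, against 160 CPM in the wild type. As counted the log2 fold change was 0.44 ± 0.18 (edgeR adjusted p = 0.0935), and with the trend removed it was 1.02 ± 0.19 (edgeR adjusted p = 0.00514). That step rests on a transcript of 493 bases. With the longest annotated transcript, of 2021 bases, it still passed, at 0.60 (edgeR adjusted p = 0.0317). The counts do not separate its forms.

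In the Q module, the accessory gene Ndufa5 had 120 and 127 CPM in the null libraries, against 231 CPM in the wild type. It fell as counted, at -0.90 ± 0.17 (edgeR adjusted p = 0.00373), and had 0.017 ± 0.17 with the trend removed (edgeR adjusted p = 0.960). Ndufa9, which sits where the peripheral arm meets the membrane, had 215 and 188 CPM against 194 CPM and overlapped with the wild type.

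The proximal membrane arm had 4 of 8 members lower and 0 higher as counted, and 0 lower and 1 higher with the trend removed. Ndufa11 had 72.2 and 81.4 CPM in the null libraries, against 142 CPM in the wild type (log2 fold change -0.89 ± 0.19, edgeR adjusted p = 0.00583). Ndufc1 had 120 and 122 CPM against 219 CPM (-0.86 ± 0.17, edgeR adjusted p = 0.00480), Ndufa8 had 139 and 135 CPM against 216 CPM, and Ndufc2 had 181 and 196 CPM against 288 CPM. With the trend removed these 4 had -0.39, 0.039, -0.27 and 0.053 and none passed. With the longest transcripts Ndufa11 passed, at -0.58 (edgeR adjusted p = 0.0310). Ndufa3 and Ndufa13 (GRIM-19) had -0.49 and -0.45 and did not pass.

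Ndufa10 and Ndufa1 stood at the upper end of this arm. Ndufa10, which resembles a nucleoside kinase, had 171 and 141 CPM in the null libraries, against 108 CPM in the wild type. It had the highest log2 fold change of the 40 genes as counted, at 0.54 ± 0.20 (edgeR adjusted p = 0.0681), and 0.59 ± 0.19 with the trend removed (edgeR adjusted p = 0.0595). It passed where length alone was corrected (0.65, edgeR adjusted p = 0.0228) and with the longest transcripts (0.66, edgeR adjusted p = 0.0260). Ndufa1, a small X-linked subunit needed for assembly, had 86.7 and 89.8 CPM against 91.2 CPM, just above both (log2 fold change -0.047 ± 0.19, edgeR adjusted p = 0.888). Its transcript of 419 bases is among the shortest, and with the trend removed its value was 0.87 ± 0.18 (edgeR adjusted p = 0.00972).

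The distal membrane arm, which lies farthest from the NADH site, had the lowest median among the 4 subunit groups in both fits, with no test of that order. As counted 8 of 11 members were lower and 0 higher, with a median log2 fold change of -0.72, and with the trend removed 2 were lower and 0 higher, with a median of -0.31. All 11 members lay below the wild type in both null libraries as counted. That order was found in 43.0% of all genes tested and in 66.9% of the shortest length class. Ndufab1, at 3479 bases, lies outside that class. The summed level of this arm was 59.8% and 61.9% of that of the wild type. The proximal membrane arm had 73.0% and 71.6%, the N module 77.8% and 76.5%, and the Q module 92.2% and 84.6%. The sum over all genes tested was 93.7% and 95.1%. These sums are as counted and not corrected for length.

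Ndufb4 fell in both fits. It had 126 and 139 CPM in the null libraries, against 300.3 CPM in the wild type, and log2 fold changes of -1.18 ± 0.17 as counted (edgeR adjusted p = 0.000937) and -0.79 ± 0.16 with the trend removed (edgeR adjusted p = 0.00899). Ndufab1, the mitochondrial acyl carrier protein that also serves fatty acid synthesis and iron-sulfur cluster assembly, did so too. It had 218 and 217 CPM against 340.2 CPM, with -0.65 ± 0.16 as counted (edgeR adjusted p = 0.0142) and -0.59 ± 0.16 with the trend removed (edgeR adjusted p = 0.0315). The null libraries were closer to each other than to the wild type in these genes, as in 73.0% of all genes tested.

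The other 6 lower members of this arm passed as counted but not with the trend on the median-length transcripts removed. Ndufb2 had 65.8 and 82.2 CPM in the null libraries, against 154 CPM in the wild type (log2 fold change -1.05 ± 0.19, edgeR adjusted p = 0.00302). Ndufb6 had 130.0 and 131 CPM against 261 CPM (a fitted level of 49.9% of the wild type, edgeR adjusted p = 0.00193), and Ndufb8, the subunit with the highest level per length, had 343 and 362 CPM against 621 CPM (-0.82 ± 0.15, edgeR adjusted p = 0.00328). Ndufb7, Ndufb9 and Ndufb10 had log2 fold changes of -0.72, -0.58 and -0.73 as counted. With that trend removed the 6 ranged from -0.39 for Ndufb2 to -0.13 for Ndufb9. With the trend on the longest transcripts removed, 3 of the 6 passed, at -0.98 for Ndufb2 (edgeR adjusted p = 0.00154), -0.98 for Ndufb7 (edgeR adjusted p = 0.00111) and -0.54 for Ndufb8 (edgeR adjusted p = 0.0352). Their longest transcripts have 4371, 4435 and 2142 bases, against 455, 623 and 680 bases for those of median length. Ndufb3, Ndufb5 and Ndufb11 passed in neither fit, and Ndufb11 has a near-identical copy, Gm6444.

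**Figure D2:**
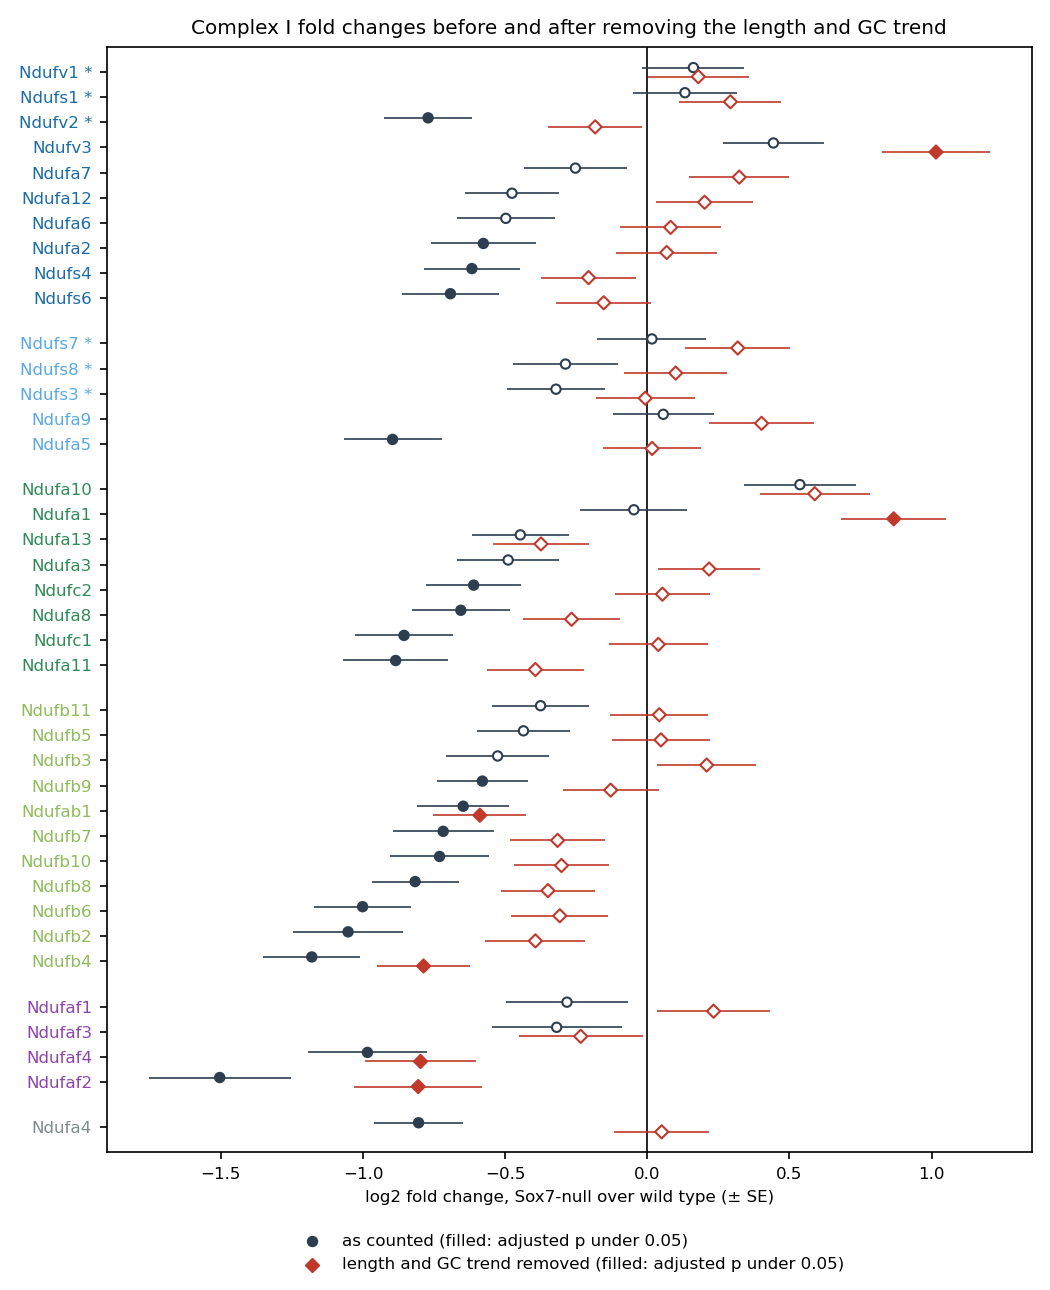
Log2 fold change of 39 complex I genes, Sox7-null over wild type, with its standard error, as counted (circles) and with the trend on transcript length and GC removed (diamonds). Filled symbols have an adjusted p under 0.05. Removing the trend moved all 39 upward, by 0.017 to 0.91, and left 4 lower and 2 higher, against 20 and 0 as counted.

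Assembly factors had a lower median level than subunits in every library. Per kilobase of transcript, the 4 assembly factors had a median of 15.4 and 20.5 CPM in the null libraries and 29.0 CPM in the wild type, and the 35 subunits had 169, 183 and 260 CPM per kilobase. Of the 4, 2 were lower and 0 higher in both fits. Ndufaf2, a relative of Ndufa12 that occupies its place during assembly, had the largest decrease of the 40 genes. It had 11.3 and 17.1 CPM in the null libraries, against 40.4 CPM in the wild type, with log2 fold changes of -1.50 ± 0.25 as counted (edgeR adjusted p = 0.00177) and -0.81 ± 0.23 with the trend removed (edgeR adjusted p = 0.0325). With the longest transcripts it had -1.34 (edgeR adjusted p = 0.000687). The null libraries also differed most from each other here, by 0.57 on the log2 scale, with Sox7-null 1 the lower.

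Ndufaf4, which acts early on the Q module together with Ndufaf3, had 51.4 and 69.0 CPM in the null libraries, against 119 CPM in the wild type. It fell by 0.98 on the log2 scale as counted (SE 0.21, edgeR adjusted p = 0.00638) and by 0.80 with the trend removed (edgeR adjusted p = 0.0185). Ndufaf3 had 17.3 and 17.0 CPM against 21.4 CPM and did not pass (edgeR adjusted p = 0.347). Ndufaf1, which works on the membrane arm, had 25.4 and 28.7 CPM against 32.9 CPM and did not pass either (edgeR adjusted p = 0.375). The partners Ndufaf3 and Ndufaf4 thus had different calls, and their difference was not tested.

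A further 4 assembly factors were counted under older symbols, so the name rule did not take them. Ndufaf5, which modifies an arginine of Ndufs7, had 355 and 381 reads in the null libraries, against 897 reads in the wild type, and fell as counted (log2 fold change -1.33 ± 0.20, edgeR adjusted p = 0.00110) and with the trend removed (-0.85 ± 0.18, edgeR adjusted p = 0.0104). Ndufaf6 and Ndufaf8 fell as counted, at -0.91 and -1.03, and did not pass with the trend removed. Ndufaf7, a methyltransferase, had 409 and 438 reads against 496 reads and did not pass. Of the 9 assembly factors without an Nduf name, 8 were in the files. Only Tmem70, which also serves ATP synthase, was lower as counted (-0.64 ± 0.19, edgeR adjusted p = 0.0284), and 0 of the 8 passed with the trend removed.

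Ndufa4, first described as a complex I protein and now placed in complex IV, had 321 and 362 CPM in the null libraries, against 597 CPM in the wild type. It fell as counted, at -0.80 ± 0.16 (edgeR adjusted p = 0.00421), and had 0.051 with the trend removed. Its relative Ndufa4l2, a target of the hypoxia-inducible factor that the rule sets aside, had 957 and 891 reads in the null libraries, against 44 reads in the wild type (log2 fold change 4.35 ± 0.28, edgeR adjusted p = 5.21e-06). The value with the trend removed was 4.58.

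The fold changes of all genes tested ran with transcript length. All genes tested that have a length were put into 5 classes of equal size. In the shortest class, up to 1588 bases, the median log2 fold change of all 2642 genes was -0.38, and 26.0% were lower and 5.15% higher. In the longest class, from 4599 bases, the median was 0.28, with 3.03% lower and 18.8% higher. Of the 40 complex I genes 33 were in the shortest class, where 17 were lower and 0 higher, with a median of -0.58. The 4 in the next class, from 1589 to 2384 bases, had a median of 0.20, against -0.085 for all genes of that class.

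With the transcripts of median length, the members' values ran with length about as closely as those of all genes. Across the 40 genes, which share the same 3 libraries, log2 length and log2 fold change had a Pearson r of 0.30 and a Spearman coefficient of 0.32, against 0.24 and 0.31 across all 13203 genes with a length. With the longest annotated transcripts the members' values were -0.019 and 0.014. The 2 long members Ndufab1 (3479 bases) and Ndufaf4 (3632 bases) were lower, whereas the median of all genes in their class was 0.12. Of the 5 members shorter than Ndufa3 (515 bases), Ndufv3 and Ndufa1 lay above the median of the shortest class, at 0.44 and -0.047, and Ndufa5, Ndufc1 and Ndufb2 lay below it, at -0.90, -0.86 and -1.05. Of the 12 members under 600 bases 6 were lower as counted, of the 15 from 600 to under 1000 bases 11 were, and of the 13 longer ones 3 were.

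**Figure D3:**
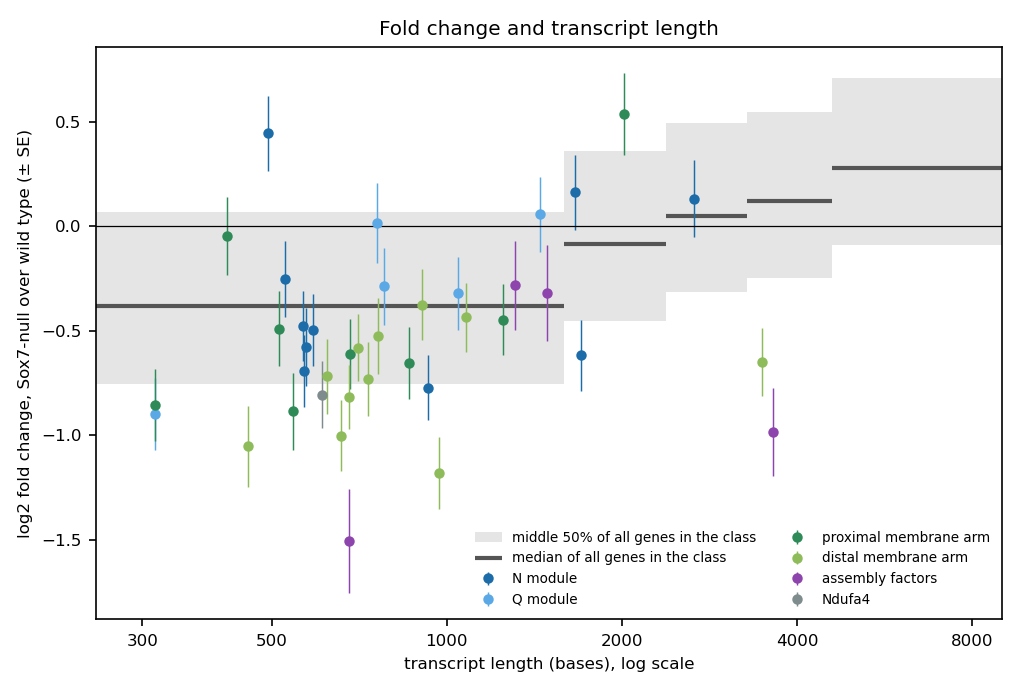
Log2 fold change (Sox7-null over wild type, with standard error, as counted) of 39 complex I genes against transcript length on a log axis, coloured by their place in the complex. Grey bars span the middle 50% and dark lines the median of all tested genes in 5 length classes, from -0.38 in the shortest to 0.28 in the longest, with 33 of the 39 genes in the shortest class.

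Complexes II and III, neighbouring parts of the respiratory chain, were counted in the same way. Among all genes tested 10.2% were lower and 11.3% higher as counted, and 5.74% and 8.83% with the trend removed. In the shortest length class 26.0% were lower and 5.15% higher as counted. Of 9 complex III genes 4 were lower and 0 higher as counted and 0 passed with the trend removed (median -0.48 and -0.039). The subunits Uqcrh and Uqcr10 were lower as counted, at -1.19 ± 0.16 and -0.98 ± 0.16, and the core proteins Uqcrc1 and Uqcrc2 had -0.020 and 0.045. The calls among the 9 genes did not follow transcript length throughout, and the part of length in them was not tested. Of 4 complex II genes only the membrane anchor Sdhd was lower, in both fits (-1.07 ± 0.17 and -0.71 ± 0.17). Whether complex I differs from these complexes was not tested. The 7 subunits encoded in mitochondrial DNA had no match by symbol among the counted genes and were not analysed here.

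Regulators of mitochondrial genes were listed as well. Of 12, 1 was higher and 0 lower as counted, and 0 were higher and 1 lower with the trend removed. Among all genes tested 21.6% were called in either direction as counted, and 14.6% with the trend removed. The coactivator Ppargc1b had 357 and 237 reads in the null libraries, against 138 reads in the wild type (log2 fold change 1.07 ± 0.30, edgeR adjusted p = 0.0227), and did not pass with the trend removed (0.74, edgeR adjusted p = 0.0945). The nuclear receptor Esrra had 413 and 491 reads against 603 reads and was lower with the trend removed (-0.68 ± 0.19, edgeR adjusted p = 0.0354), but did not pass as counted (-0.46, edgeR adjusted p = 0.138). Nrf1, Gabpa and Yy1, which encode the factors of the motifs above, had -0.14, 0.28 and 0.10 and did not pass. Among the genes with a YY1 core in the promoter 4 of 7 were lower as counted, and among the other 29 with a promoter 14 were.

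**Figure D4:**
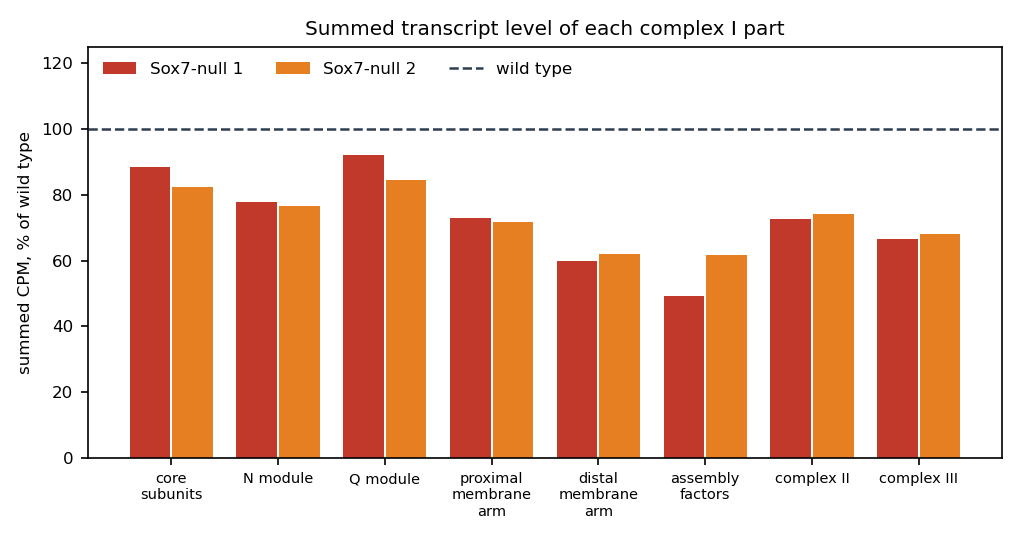
Summed CPM of each complex I group, and of complexes II and III, in the first (red) and second (orange) Sox7-null library as a percentage of the wild type (dashed line at 100). As counted, the distal membrane arm stood at 59.8% and 61.9%, the core subunits at 88.4% and 82.5%, and the 4 assembly factors at 49.3% and 61.6%. The sum over all genes tested, not plotted, stood at 93.7% and 95.1%.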

How the data were processed

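The authors deposited 1 table of raw read counts for each library of mouse heart tubes. The tools named in the submitters' processing notes are DESeq2 1.10.1, HTSeq, TopHat2 and CASAVA, with no roles, and the builds named there are hg19 and GRCh37, although the symbols are those of mouse. No source used here gives the annotation or strand setting behind the counts, so overlapping and antisense genes cannot be told apart. Per the labels' protocols, libraries came from a stranded total RNA kit. The 5 summary lines per file, among them reads with no feature (8.10% and 8.52% in the null libraries, 11.7% in the wild type), were left out.

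Counts were tested with edgeR 4.0.16 (glmQLFit and glmQLFTest, TMM, filterByExpr with a minimum count of 10) in R 4.3.3, with genotype as the term and Benjamini-Hochberg adjustment over 13334 genes. There was 1 residual degree of freedom beside 11.8 prior ones, and the single wild-type tube is taken to vary as much as the null tubes do. CPM are TMM-scaled. Ratios of single libraries use log2(CPM + 0.5). The SE is the size of the log2 fold change divided by the square root of F. Lengths and GC are those of the GENCODE M21 transcript of median length among those with a curated RefSeq mRNA, or else of the longest principal or basic transcript (all 40 members and 13203 of the genes tested had a length). For the second fit, a smooth trend (mgcv 1.9.3) of each library on log2 length and GC was removed as gene-wise offsets. It is fitted on these same libraries, so it removes any difference that runs with length. Both fits were tested on simulated data. Alternatives were DESeq2 1.42.0, limma-voom (limma 3.58.1), other scalings and filters, and other length settings.

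The members, lists and tests were chosen with earlier results of these data known. Some genes of these lists are not reported here by name, in the text or the plots, but are kept in every count and median. Otherwise, named with values were the core subunits and assembly factors, the 4 highest and 4 lowest accessory genes of each arm and members whose call differed between the fits. From other lists, up to 6 called genes were named by smallest p, and further genes of these lists were named after their values were seen.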

Additional observations from a re-analysis of the deposited data

How the results depend on the processing

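With DESeq2 size factors, upper quartile scaling, a minimum mean of 5 CPM, limma-voom and the DESeq2 test, 19 or 20 of the 40 genes were lower and 0 higher, and the median stayed between -0.56 and -0.54. Leaving out the 4 genes with a near-identical copy gave 19 lower and a median of -0.58. Without any filter on low counts, 26 members were lower at an unadjusted p under 0.05, beside 4113 of all 17242 genes in either direction. After adjustment edgeR called 0 members lower and 0 of all genes either, with a members' median of -0.54. The cause was not tested. Without each null library in turn the median ranged from -0.57 to -0.54, as values with no test, and Ndufa9 and Ndufs7 had -0.041 and -0.029 without Sox7-null 1 (Ndufs7 had 0.060 without Sox7-null 2). No paired analysis was possible because the labels give the libraries no shared numbers.

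Correction for length decided most calls. With the length and GC trend removed 4 genes were lower and 2 higher, and the median was 0.041. With length alone the counts were 4 and 3 and the median -0.0075. With the longest annotated transcript of each gene, an alternative chosen after seeing the data, they were 8 and 3 and the median -0.12. Ndufb4, Ndufab1, Ndufaf2 and Ndufaf4 were lower, and Ndufa1 and Ndufv3 higher, in all 3 of these fits. For Ndufb4, Ndufab1, Ndufaf4 and Ndufa1 the transcript of median length is also the longest, so their length was the same in all of them. Only for Ndufaf2 (678 and 2404 bases) and Ndufv3 (493 and 2021 bases) did the length change. The longest transcripts added Ndufa11, Ndufb2, Ndufb7 and Ndufb8 as lower. The sign turned in 15, 13 and 10 genes.
With the length and GC trend removed, these had values of 0.87 in Ndufa1, 0.20 in Ndufa12, 0.068 in Ndufa2, 0.22 in Ndufa3, 0.051 in Ndufa4, 0.017 in Ndufa5, 0.082 in Ndufa6, 0.32 in Ndufa7, 0.23 in Ndufaf1, 0.042 in Ndufb11, 0.21 in Ndufb3, 0.048 in Ndufb5, 0.039 in Ndufc1, 0.053 in Ndufc2 and 0.10 in Ndufs8. With length alone, they had 0.74 in Ndufa1, 0.18 in Ndufa12, 0.078 in Ndufa2, 0.21 in Ndufa3, 0.016 in Ndufa5, 0.15 in Ndufa6, 0.44 in Ndufa7, 0.0031 in Ndufaf1, 0.076 in Ndufb11, 0.00026 in Ndufb3, 0.058 in Ndufc1, 0.067 in Ndufs3 and 0.23 in Ndufs8. With the longest transcript, they had 1.00 in Ndufa1, 0.16 in Ndufa2, 0.070 in Ndufa3, 0.51 in Ndufa7, 0.18 in Ndufaf1, 0.11 in Ndufb11, 0.29 in Ndufb3, 0.14 in Ndufc2, 0.048 in Ndufs3 and 0.069 in Ndufs8. A single wild-type library, 1 residual degree of freedom and a length trend of unknown source limit what these counts can show.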
